A study of Mus musculus with 8 samples.

Results

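The genes described here encode the machinery that carries proteins into the endoplasmic reticulum (ER) and the coats that move them between ER and Golgi. They were chosen by name from the deposited polysome table, and 43 of its 21765 gene rows were members. By role there were 7 genes of the signal recognition particle (SRP) and its receptor, 5 of the Sec61 translocon, 4 of the translocon-associated (TRAP) complex, 3 of signal peptidase, 11 of the COPII coat, 9 of the COPI coat and 4 cargo receptors. The test covered 16097 genes with a mean of at least 1 TPM (transcripts per 1000000, a level corrected for transcript length), and 42 of the 43 members were among them.

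The samples are polysome RNA of mouse main olfactory epithelium, in 4 groups of 2 libraries. The tissue of all groups was treated with cycloheximide, which holds ribosomes on mRNA, at 100 µg/mL on dissection, and lysates were spun through sucrose gradients. Early polysomes (fractions 27 to 34) lie higher and are lighter than late polysomes (fractions 35 to 42). WT mice carried floxed Mex3a on 1 or both alleles (Mex3a flox/flox or Mex3a flox/+), and conditional knockout (cKO) mice were Mex3a flox/flox with a Cre driver, so that all animals carried a floxed allele. Mex3a encodes an RNA-binding protein. In WT early replicate 2 the title says WT while the genotype tag is that of cKO, and the title was followed. The labels do not say that replicates came from separate animals, so p-values measure the spread between these libraries, which may be technical.

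SRP binds the signal sequence of a nascent protein on the ribosome and brings the complex to its receptor on the ER membrane. There the Sec61 channel, with TRAP, Sec62 and Sec63 beside it, passes or inserts the chain, and signal peptidase removes the signal sequence. COPII buds cargo from the ER, and COPI returns vesicles from the Golgi and moves them within it; in olfactory neurons the odorant receptors are membrane proteins that depend on this route.

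Depth, inferred from the steps of the TPM values, lay between 7776792 and 12771079 reads per library, lowest in cKO late replicate 2. Markers of mature olfactory neurons were present in every library, with Omp at 2439 to 5393 TPM as deposited. The targeted gene went with the titles: Mex3a stood at 97.4 and 115.6 TPM in WT early and 93.2 and 95.6 in WT late, whereas cKO libraries held 13.9 and 19.8 (early) and 11.1 and 13.8 (late). The library with the conflicting tag was the one at 115.6. In cKO, Mex3a fell by 2.55 (SE 0.18) on the log2 scale in early polysomes and by 2.80 (SE 0.18) in late polysomes, with adjusted p = 0.00459 and 0.00282 by limma with Benjamini-Hochberg adjustment. These calls were lost when a WT library was left out: adjusted p was 0.0807 without WT early replicate 1, 0.0501 without WT early replicate 2, and 0.0902 and 0.0946 without WT late replicate 1 and 2 (limma).

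Small subunits of the translocon and of SRP were among the members that were lower in late than in early polysomes. Sec61g (68 codons, chr11:16500530-16508484, minus strand) and Sec61b (96 codons, chr4:47474658-47483242, plus strand) encode the small membrane-anchored γ and β subunits that flank the channel. Srp9 (86 codons, chr1:182124750-182132407, plus strand) and Srp14 (110 codons, chr2:118475850-118479711, minus strand) encode the pair that pauses elongation while SRP is bound. Positions are on GRCm38, from GENCODE M21. The complete coding sequences of the shortest 3 are shown because short coding sequences went with lower levels in late polysomes, with the start and stop codon in capitals and the exons joined 5′ to 3′.
Sec61g: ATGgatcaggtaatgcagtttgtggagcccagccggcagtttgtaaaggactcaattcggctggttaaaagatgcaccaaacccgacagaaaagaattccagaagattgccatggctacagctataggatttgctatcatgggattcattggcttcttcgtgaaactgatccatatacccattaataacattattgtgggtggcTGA
Sec61b: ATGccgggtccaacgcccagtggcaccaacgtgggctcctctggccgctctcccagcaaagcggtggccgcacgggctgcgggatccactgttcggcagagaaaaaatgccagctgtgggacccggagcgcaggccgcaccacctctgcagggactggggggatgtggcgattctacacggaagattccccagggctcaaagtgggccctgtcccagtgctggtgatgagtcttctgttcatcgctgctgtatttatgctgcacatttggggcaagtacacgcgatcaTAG
Srp9: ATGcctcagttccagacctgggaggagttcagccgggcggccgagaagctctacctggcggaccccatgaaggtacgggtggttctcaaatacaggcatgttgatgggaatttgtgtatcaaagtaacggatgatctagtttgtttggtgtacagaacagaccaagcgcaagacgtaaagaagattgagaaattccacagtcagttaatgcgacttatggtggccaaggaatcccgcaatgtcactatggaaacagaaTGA

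The first comparison asked how the messages are spread between light and heavy polysomes. On average over genotypes 40 of 42 tested members passed an adjusted p of 0.05, against 68.9% of all genes tested. Of the 42 tested members, 20 passed as higher in late polysomes (34.3% of all genes tested) and 20 as lower (34.6%). The 11094 called genes split about evenly too, with 5519 higher and 5575 lower. The 68.9% includes low genes, whereas the lowest tested member had a mean of 26.2 TPM. With a minimum mean TPM of 5, 10108 of 12816 genes were called. Large coat and channel subunits rose, while small subunits of SRP, the translocon, TRAP and signal peptidase fell. The 2 members that did not pass were Srprb, the membrane-anchoring β subunit of the SRP receptor (log2 change -0.07, SE 0.08), and Arcn1, the δ subunit of COPI (0.15, SE 0.08). The median over the 42 members was 0.04, with an SD of 0.11 over the medians of 4 lysates, beside -0.01 over all genes tested. By the library names, the early and late library of a pair came from the same lysate. Between genotypes, fewer cells of a type and less RNA per cell cannot be told apart in bulk tissue.

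**Figure D1:**
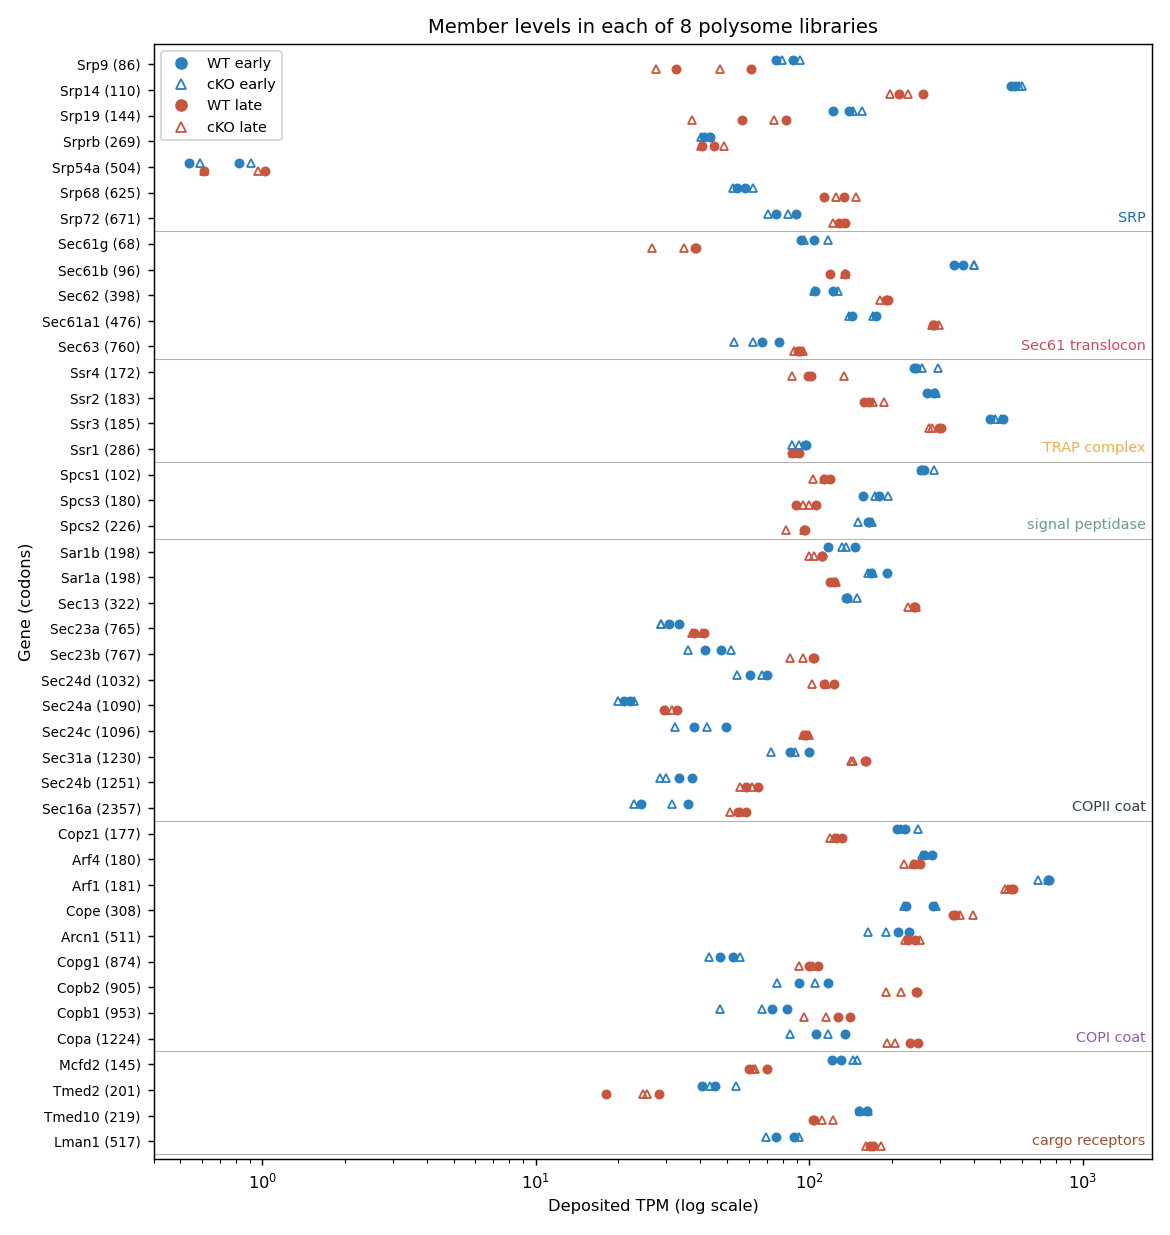
Deposited TPM (log axis) of the 43 members in each of the 8 libraries, grouped by complex and ordered by codons (in brackets); blue is early and red is late, filled circles are WT and open triangles cKO. Early and late libraries separate for 39 of the 42 tested members, to the left in late polysomes for short genes and to the right for long ones.

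Within SRP, 3 of 6 tested members fell, 2 rose and 1 did not pass. For this count and those of the other complexes, the shares of all genes tested were 34.6% lower and 34.3% higher. Srp14 stood at 548 and 563.3 TPM in WT early and 600.4 and 584.1 in cKO early libraries, against 261 and 212.6 in WT late and 230.6 and 197.6 in cKO late. Every early library was above every late library. Scaled means in WT were 567 ± 16.7 early and 225 ± 34.5 late (SD, n = 2 each), and the average change was -1.47 (SE 0.10), or 2.77-fold lower, with adjusted p = 1.88e-05 by limma with Benjamini-Hochberg adjustment. Its partner Srp9 fell by 1.15 (SE 0.22) on the log2 scale, and Srp19, which prepares the SRP RNA for binding of the Srp54 protein, by 1.32 (SE 0.21). Both varied widely among late libraries, Srp9 from 27.5 to 61.2 TPM and Srp19 from 37.3 to 82.1, with the lowest value of each in cKO late replicate 2.

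The large SRP pair moved the other way. Srp68 (625 codons, chr11:116245166-116274217, minus strand) stood at 58.1 and 54.6 TPM in WT early and 62.3 and 52.8 in cKO early, against 113.7 and 134.4 in WT late and 125.8 and 148.3 in cKO late libraries. The lowest late library was above the highest early one, and the rise was 1.06 (SE 0.08, 2.09-fold, adjusted p = 2.52e-05, limma with Benjamini-Hochberg adjustment). Srp72, which binds Srp68 within the particle, rose by 0.59 (SE 0.08). Srp54a, one of near-identical copies of the gene for the signal-sequence-binding GTPase, was the lowest member at 0.54 to 1.02 TPM on 7 to 19 inferred reads. It was below the filter and untested, and since reads may be split among the copies, its level is uncertain.

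In the translocon, 3 of 5 members rose and 2 fell. Sec61g stood at 93.5 and 103.7 TPM in WT early and 95.5 and 116.7 in cKO early, against 38.6 and 38.2 in WT late and 34.7 and 26.7 in cKO late libraries. The fractions did not overlap, and the change of -1.66 (SE 0.11), or 3.17-fold lower, was the largest fall of any member (adjusted p = 1.88e-05 by limma with Benjamini-Hochberg adjustment), on 56 to 399 inferred reads per library. Sec61b stood at 337.4 and 366.5 TPM in WT early and 399.2 and 400 in cKO early, against 135.4 and 118.7 in WT late and 135.6 and 135.7 in cKO late. It too separated fully, with a change of -1.62 (SE 0.07), or 3.08-fold lower (adjusted p = 1.88e-05, same test). The channel-forming subunit Sec61a1 (476 codons) rose instead, by 0.76 (SE 0.09), from 139.8 to 175.5 TPM in early to 281.5 to 298.6 in late libraries. Sec62 and Sec63, which serve chains that enter after synthesis, rose by 0.61 (SE 0.08) and 0.38 (SE 0.08).

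All 4 TRAP members and all 3 signal peptidase members fell. All of them lie between 68 and 286 codons, where 87.7% of all tested genes were lower by sign. Ssr4, the δ subunit of TRAP (172 codons, chrX:73787062-73790826, plus strand), stood at 241.9 and 245.2 TPM in WT early and 259.4 and 295 in cKO early, against 99.1 and 101.5 in WT late and 133.5 and 86.2 in cKO late. No early library reached the late range, and the change was -1.43 (SE 0.14), or 2.70-fold lower (adjusted p = 4.41e-05, limma with Benjamini-Hochberg adjustment). The cKO late libraries, at 133.5 and 86.2, were the widest pair. Ssr3 and Ssr2 fell by 0.87 and 0.85 on the log2 scale (SE 0.07 each). Ssr1, the longest TRAP member at 286 codons, fell by only 0.18 (SE 0.06, adjusted p = 0.0361, limma), its libraries overlapped between fractions, and it lost its call in 10 of the alternatives tried, with adjusted p reaching 0.413. Those included leaving out either WT early library, either WT late library, cKO early replicate 2 or cKO late replicate 2 (adjusted p = 0.0651 to 0.107, limma). The accessory signal peptidase subunits Spcs1, Spcs3 and Spcs2 fell by 1.35, 0.96 and 0.92 on the log2 scale (SE 0.08, 0.09 and 0.08).

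Of 11 COPII members, 9 rose and 2 fell. Those that rose lie between 308 and 2357 codons, where 64.9% of all tested genes were higher by sign. Sec24c, one of 4 paralogs that select cargo in the inner coat (1096 codons, chr14:20674308-20694852, plus strand), stood at 49.8 and 38 TPM in WT early and 42.3 and 32.2 in cKO early, against 95.4 and 97.4 in WT late and 95 and 99.9 in cKO late libraries. The 4 late libraries lay within a narrow range, far above the early ones, and the rise of 1.14 (SE 0.11, 2.20-fold, adjusted p = 3.95e-05, limma with Benjamini-Hochberg adjustment) was the largest of any member. Sec24b, Sec24d and Sec24a rose by 0.77, 0.72 and 0.39 (SE 0.07, 0.08 and 0.08). Sec24a was the lowest tested member, at 22.1 and 21.1 TPM in the WT early libraries, 22.9 and 20 in cKO early, 29.4 and 32.7 in WT late and 29.9 and 31.5 in cKO late libraries.

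The paralogs of Sec23, the inner-coat subunit that stimulates GTP hydrolysis by the GTPase Sar1, differed in size of change at nearly equal length. Sec23b (767 codons, chr2:144556256-144590749, plus strand) stood at 47.4 and 41.6 TPM in WT early and 51.9 and 36.1 in cKO early, against 103.4 and 104 in WT late and 94.8 and 85 in cKO late. It rose by 1.00 (SE 0.11, 2.01-fold, adjusted p = 8.83e-05, limma with Benjamini-Hochberg adjustment), and Sec23a (765 codons) by 0.25 (SE 0.07, adjusted p = 0.0110). Within lysates the late-minus-early difference was 1.02, 1.17, 0.77 and 1.05 for Sec23b and 0.10, 0.29, 0.28 and 0.32 for Sec23a (WT 1 and 2, then cKO 1 and 2), so Sec23b was ahead in 4 of 4. The difference between the paralogs was not tested. The outer-coat subunits Sec31a and Sec13 rose by 0.70 (SE 0.08) and 0.65 (SE 0.07), and the exit-site scaffold Sec16a by 0.83 (SE 0.14). The small GTPases that start the coat, Sar1a and Sar1b, fell by 0.61 (SE 0.07) and 0.43 (SE 0.08).

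Of 9 COPI members, 5 rose, 3 fell and Arcn1 did not pass. Copb2, the β′ subunit (905 codons, chr9:98563731-98588382, plus strand), stood at 116.9 and 91.4 TPM in WT early and 105.2 and 76 in cKO early, against 247.7 and 246.6 in WT late and 216.5 and 191.1 in cKO late libraries. All late libraries exceeded all early ones, and the rise was 1.10 (SE 0.12, 2.14-fold, adjusted p = 7.51e-05, limma with Benjamini-Hochberg adjustment). Copg1, Copa, Copb1 and Cope, the γ, α, β and ε subunits, rose by 0.89, 0.88, 0.72 and 0.38 (SE 0.10, 0.11, 0.12 and 0.10). The small ζ subunit Copz1 (177 codons) fell by 0.95 (SE 0.08).

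The GTPase gene Arf1, whose product recruits the coat, was the most abundant member, with a mean of 636 TPM, ahead of Srp14 at 400 TPM. Arf1 stood at 752.5 and 745.6 TPM in WT early and 685 and 746 in cKO early, against 557 and 546.7 in WT late and 522 and 535.4 in cKO late libraries. It separated fully and fell by 0.55 (SE 0.08, adjusted p = 0.000273, limma with Benjamini-Hochberg adjustment). Its paralog Arf4 fell by 0.27 (SE 0.07, adjusted p = 0.00626, limma), a call that was lost without scaling (adjusted p = 0.072) and under quantile normalization (0.326). Arcn1 gained a call under the same settings, with changes of 0.26 and 0.31.

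Among cargo receptors 1 rose and 3 fell. Lman1, a lectin that carries glycoproteins from the ER, rose by 0.95 (SE 0.09), from 69.5 to 91.5 TPM in early to 160.7 to 182.4 in late libraries. Mcfd2, the soluble partner with which it carries coagulation factors, fell by 1.19 (SE 0.08), from 120.9 to 149.4 TPM in early to 60.1 to 70.1 in late libraries. The p24 proteins Tmed2 and Tmed10 fell by 1.03 (SE 0.14) and 0.63 (SE 0.06).

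The members were also tested within each genotype. In WT, 35 of 42 members passed, against 54.8% of all genes tested; 17 were higher in late polysomes (all genes 27.1%) and 18 lower (27.7%). In cKO 40 passed, against 58.1%, with 21 higher (28.8%) and 19 lower (29.2%). These shares of all genes, and the 62.5% below, include low genes. With a minimum mean TPM of 5, 8549 of 12816 genes were called in WT and 8899 in cKO. Arcn1 passed as higher in cKO alone (0.31, SE 0.11, adjusted p = 0.0358, limma), and Ssr1 passed in neither genotype alone. With lysate as a replicate block, Sar1b lost its call in WT (adjusted p = 0.0523), and Arcn1, Arf4 and Sec23a lost theirs in cKO (0.073, 0.053 and 0.0516, limma). All 35 members called in WT were called in cKO, in the same direction. Early and late libraries did not overlap for 39 of 42 members, against 62.5% of genes tested; the exceptions were Srprb, Ssr1 and Arcn1. In 40 of 42 members the 4 lysates shared a direction, with Srprb and Arcn1 the exceptions. The share of all genes tested was not counted here, so this describes the members alone.

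**Figure D2:**
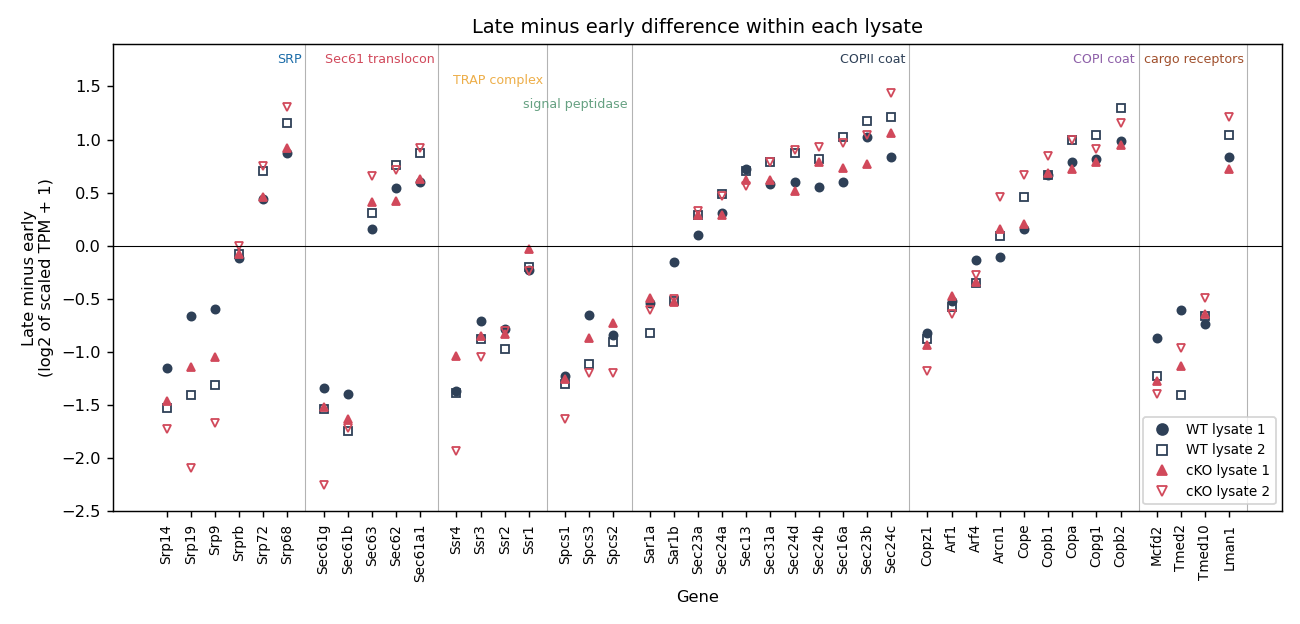
Late minus early difference in log2(scaled TPM + 1) of the 42 tested members in each of the 4 lysates, grouped by complex and ordered by the mean; points above 0 are higher in late polysomes. The largest falls of Sec61g and Ssr4 were in cKO lysate 2, at -2.25 and -1.93, and WT lysate 1 gave the smallest falls of Srp14, Srp19 and Srp9.

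Within the group, the change followed coding length. Ordered by codons, the members changed sign once: the 21 of 68 to 286 codons were lower in late polysomes, with a median of -0.95, and the 21 of 308 to 2357 codons were higher, with a median of 0.72; Srprb and Arcn1 are counted by sign alone. The boundary was placed where the members' own sign changed, so these counts describe the members and test nothing. Of all tested genes of 68 to 286 codons 87.7% were lower, and of those of 308 to 2357 codons 64.9% were higher, with medians of -0.79 and 0.25. Across the 42 members the change correlated with codons at Spearman's rho = 0.897, beside 0.636 across 14641 tested genes with a coding length. The sets were not matched for level: those genes reach down to a mean of 1 TPM, whereas the lowest tested member had 26.2. Genes are not independent replicates, and all points come from the same 8 libraries. In single lysates the members gave 0.848 and 0.882 (WT) and 0.905 and 0.895 (cKO). With the whole transcript length it was 0.671, and the lengths of the untranslated regions alone gave 0.107 (5′) and 0.079 (3′).

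The members were also set against genes of like length. Compared with the middle 50% of genes in the same bin of coding length (10 bins), 21 members lay within it, 15 above and 6 below. The bins were not matched for level either. Above it were Sec13, Cope, Lman1, Srp68, Sec61a1, Sec62, Sec23b, Sec24c, Sec24b, Sec16a, Copa, Copb2, Copg1, Arf1 and Arf4. Sec13 lay 0.81 and Srp68 0.79 above the median of its bin. Below it were Srp14, Sec61b, Sec61g, Ssr4, Spcs2 and Tmed2, with Sec61g lowest at -0.55 and Sec61b next at -0.51. Arf1 and Arf4, at 181 and 180 codons, lie at the upper edge of the shortest bin. Against the next bin, of 183 to 257 codons, both would lie within the middle 50% (-0.90 to -0.27), so their place rests on the bin edge.

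**Figure D3:**
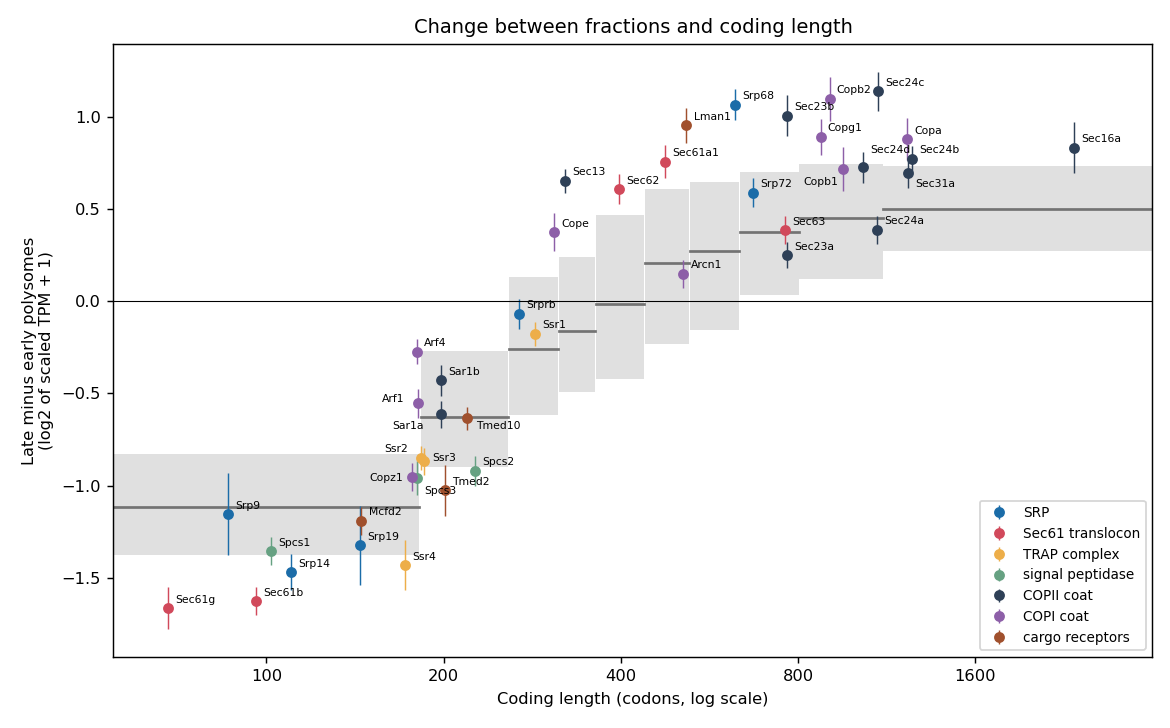
Late minus early change (log2 of scaled TPM + 1, bars are SE) of the 42 tested members against coding length (codons, log axis); grey boxes are the middle 50% of all tested genes in each of 10 bins of coding length, and grey lines their medians. Members cross 0 between 286 and 308 codons, and 15 of 42 lie above the box of their bin, of which Arf1 and Arf4 sit at a bin edge.

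Markers of sustentacular cells, the supporting cells of the epithelium, moved with the fractions. All 8 of the listed markers rose in late polysomes (median 1.19), and their summed level was 2810 to 4517 scaled TPM in early and 9906 to 10994 in late libraries, with none at 0. Of 10 mature neuron markers, 7 rose and 3 fell, and their sum was 10604 to 13027 in early and 7261 to 8707 in late libraries. Of 10 immature neuron markers 5 rose and 4 fell, of 8 neutrophil and macrophage markers 1 rose and 4 fell, and of 7 Bowman gland markers 5 rose and 1 fell. Horizontal basal cell markers also moved 1 way, with 5 of 6 rising and 0 falling (median 0.73). Of 8 globose basal and progenitor markers 5 rose and 1 fell, and of 6 ensheathing glia markers 2 rose and 2 fell. Among all genes tested 34.3% rose and 34.6% fell. The part of cell type in the members' changes was not tested.

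Other genes of the pathway also held both rises and falls. Of 87 tested, 23 rose and 52 fell, and the median was -0.44, beside -0.01 over all genes tested. Of all genes tested 34.3% rose and 34.6% fell, which holds for each list below as well. The lists were not matched for coding length, and of all tested genes of 68 to 286 codons 87.7% were lower by sign. In the oligosaccharyltransferase, which attaches glycans at the translocon, 6 of 12 genes rose and 6 fell, from Rpn2 at 0.93 (SE 0.08, 631 codons) to Tmem258 at -1.87 (SE 0.23, 79 codons). Of the ER membrane complex, a second insertase, 1 of 10 rose (Emc1, 0.85, SE 0.10) and 6 fell, most of all Mmgt1 (-1.25, SE 0.14). In the tail-anchor pathway 2 of 6 rose, with Bag6 at 1.15 (SE 0.11), and 4 fell, with Ubl4a at -1.12 (SE 0.09). The SRP receptor α subunit Srpr rose by 0.59 (SE 0.09), while its β partner Srprb did not pass.

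Among other translocon partners 1 of 7 rose (Ccdc47, 0.93, SE 0.10) and 3 fell. Sec11c, a catalytic subunit of signal peptidase, was lowest at -1.28 (SE 0.11, 192 codons, mean 152 TPM). Its paralog Sec11a, at 179 codons and a mean of 216 TPM, did not pass (-0.04, SE 0.06, adjusted p = 0.599, limma). Of 9 further COPII and exit-site genes 3 rose and 3 fell, from Mia3, which helps export collagen, at 1.02 (SE 0.12) to Pdcd6 at -1.28 (SE 0.09). Of 11 COPI and Arf-cycle genes 6 rose and 4 fell, from Arfgap2 at 1.07 (SE 0.07) to Copz2 at -1.42 (SE 0.15). Of the other p24 genes 0 of 7 rose and 6 fell, with Tmed1 lowest at -1.10 (SE 0.10). Those that fell have short coding sequences, of 221 to 235 codons. Of 24 further cargo receptors and ER-Golgi fusion genes 3 rose and 20 fell, from Bcap31 at 0.64 (SE 0.06) to the SNARE gene Bet1 at -1.48 (SE 0.14). In the clathrin coat and adaptors, a comparison outside the ER route, 9 of 17 rose and 7 fell, from Ap3d1 at 1.18 (SE 0.09, 1199 codons) to Ap2s1 at -1.28 (SE 0.09, 142 codons).

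The next comparison asked whether loss of Mex3a changed these messages on polysomes. None of the 42 tested members passed in early polysomes (0.0435% of all genes tested did), in late polysomes (0.0124%), on the mean of each lysate's fractions (0.00621%) or in the interaction of genotype and fraction (0.00621%), by limma with Benjamini-Hochberg adjustment. At an unadjusted p under 0.05 there were 4 members in early polysomes (all genes 6.64%), 1 in late (9.36%), 2 on lysate means (11.3%) and 0 in the interaction (2.85%). On inferred whole reads, voom called 0 members in each, with 5, 0, 10 and 0 at an unadjusted p under 0.05 (all genes 7.68%, 8.89%, 15.2% and 2.46%); of all genes it called 12, 15, 58 and 0. Genotype differences ran from -0.41 to 0.28 in early and from -0.33 to 0.21 in late polysomes. The 95% intervals had a median half-width of 0.27 and reached 0.72 for Srp9. Such an interval goes with an unadjusted p of 0.05, so a call after adjustment over all genes needed a larger change. Changes somewhat larger than these half-widths could therefore also have been missed.

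**Figure D4:**
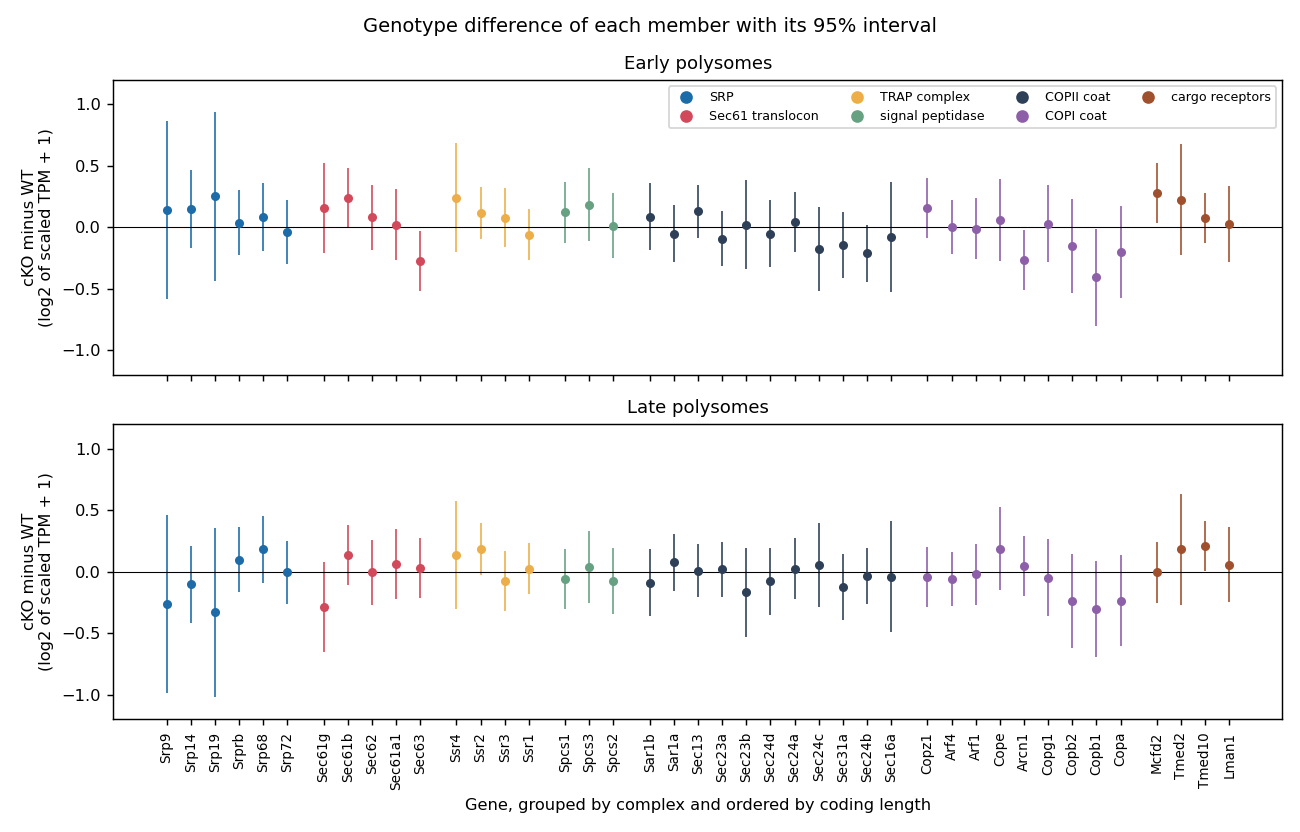
cKO minus WT difference in log2(scaled TPM + 1) of the 42 tested members in early (top) and late (bottom) polysomes, with 95% intervals from the fit of all 8 libraries, grouped by complex. Differences lie between -0.41 and 0.28 in early and between -0.33 and 0.21 in late polysomes, and most intervals include 0.

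The members at an unadjusted p under 0.05 are given with their values. Copb1, the β subunit of COPI, stood at 83.1 and 73 TPM in WT early against 67.3 and 47.1 in cKO early, and at 140.4 and 127.6 in WT late against 115.5 and 96 in cKO late libraries. Each cKO library was below both WT libraries of its fraction. The early difference was -0.41 (95% interval -0.80 to -0.01, adjusted p = 0.742, limma) and that on lysate means -0.36 (adjusted p = 0.430, limma). The α and β′ subunits Copa and Copb2, which were not at an unadjusted p under 0.05, gave lysate-mean differences of -0.22 and -0.20. Their adjusted p was 0.543 and 0.589 (limma). Of the 9 COPI members, 7 were lower and 2 higher in cKO on lysate means. The median of the 9 was -0.03, and the differences ran from -0.36 to 0.12.

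Sec63 stood at 77.8 and 67 TPM in WT early and 62.1 and 53 in cKO early, a difference of -0.27 (adjusted p = 0.725, limma), and at 92.3 and 91.1 in WT late against 87.8 and 94.7 in cKO late, where the libraries overlapped. Arcn1 stood at 232.5 and 210.5 TPM in WT early and 190.2 and 163.9 in cKO early, a difference of -0.27 (adjusted p = 0.725, limma), while in late libraries, at 229.3 and 244.5 in WT and 224.5 and 253.2 in cKO, it overlapped. Neither gene passed in the interaction, where the estimates were 0.30 for Sec63 and 0.32 for Arcn1 (adjusted p = 1.0 each, limma). Mcfd2 was higher in cKO early libraries, at 144 and 149.4 TPM against 120.9 and 130.2 in WT, a difference of 0.28 (adjusted p = 0.720, limma). In late libraries Mcfd2 overlapped, at 70.1 and 60.1 in WT and 62.5 and 63.2 in cKO.

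Tmed10 stood at 111.7 and 122.4 TPM in cKO late against 103.6 and 104 in WT late libraries, a difference of 0.21 (adjusted p = 0.522, limma). Sec61b, with the values above, differed by 0.19 on lysate means (adjusted p = 0.402, limma) and was higher in cKO in both fractions. None of these 6 genes passed after adjustment over all genes.

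Features that the choice of members did not use were read from their sequences. A purine stood 3 bases before the start codon in 42 of 43 members (97.7%), against 85.6% of 14310 tested genes, and a purine there with G just after the start codon in 23 (53.5%, all 44.3%). In the 250 bases before the transcription start, from RefSeq promoters on GRCm38.p6, 35 members had an entry. In 16 of the 35 (45.7%) CCACGT was found on either strand, against 10.3% of tested genes with an entry. It holds CCACG, which several ER stress elements share. TGACGTGG, which contains the reverse complement of CCACGT and is the unfolded protein response element, was found in 3 of 35 (8.57%), against 0.902%. The longer ER stress elements known as ERSE and ERSE-II were found in none of these windows. The change between fractions had a median of -0.12 in the 16 members with CCACGT and 0.31 in 18 tested members without it, with overlapping ranges of -1.35 to 1.14 and -1.66 to 1.00.

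The TGACGTGG element is shown for the 3 promoters that hold it, from 30 bases before it to the transcription start in Sec24d and Copb1 and to 30 bases after it in Arf1, 5′ to 3′ on the strand of the gene, with the element in capitals. They are Sec24d (chr3:123267440-123267495, plus strand), Copb1 (chr7:114254681-114254738, minus strand, element reversed) and Arf1 (chr11:59228209-59228276, minus strand). Counted to the RefSeq start, the element ends 18 and 20 bases before it in Sec24d and Copb1, and 76 bases before it in Arf1. The GENCODE M21 transcripts used for coding length begin further upstream in Sec24d (chr3:123267455) and Copb1 (chr7:114254711). By that annotation the element lies inside the transcript in Sec24d and Copb1, and before it in Arf1. A match describes these letters and says nothing of binding.
Sec24d: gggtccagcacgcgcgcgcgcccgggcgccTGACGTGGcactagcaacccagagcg
Copb1: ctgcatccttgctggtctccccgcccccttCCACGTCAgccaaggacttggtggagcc
Arf1: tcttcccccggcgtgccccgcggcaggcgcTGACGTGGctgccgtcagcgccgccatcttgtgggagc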

How the data were processed

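Polysome RNA of 8 libraries (2 each of WT early, WT late, cKO early and cKO late) was analysed, with groups and replicate numbers from the titles and lysates from the library names. The Cre line of the cKO mice is not reported here. Per the labels' protocols, 50 µL of each of the pooled fractions, out of about 42 of 350 µL, went into stranded low-input libraries. The authors deposited 1 table of TPM values. The submitters' processing notes name FastQC, cutadapt, STAR, DESeq2 and mm10, without roles; the counting tool and annotation are not given in the sources used here. The table had 0 per-sample columns outside these libraries.

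TPM was scaled by median ratios, and log2(scaled TPM + 1) of the 16097 genes with a mean TPM of at least 1 was fitted over all 8 libraries with limma 3.58.1 (empirical Bayes with trend) in R 4.3.3. Benjamini-Hochberg adjustment ran over all genes tested, at a threshold of 0.05, with two-sided tests. All changes are on the log2(scaled TPM + 1) scale, so those of low genes are understated. Genotype was also tested on lysate means. Whole reads were inferred from TPM steps for all 19783 genes above 0 in 2 or more libraries (tolerance 0.001; tested on simulated data, 99.6% of 3954 values were recovered exactly) and used for depth and for voom. On simulated libraries with 200 genes changed 3-fold, the late against early test recovered 195 with 23 false calls among 16067 genes. The early genotype test recovered 186 with 18 false calls among 16072, and the late one 175 with 20 among 16076. The genotype test on lysate means recovered 190 with 35 false calls among 16050. With 0 genes changed, the interaction test gave 3 false calls among 16074. Changes smaller than 3-fold were not simulated.

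Library names pair each early library with a late one of the same lysate; the deviations of such pairs from group means had r = 0.0862 (WT) and r = 0.0502 (cKO) over genes. Coding lengths and positions came from GENCODE M21. Members and lists were chosen with earlier results of these data known. Genes given in full were Mex3a, the 4 largest rises and falls among called members, the 2 members of highest and of lowest mean TPM, members at an unadjusted p under 0.05 in a genotype comparison, and the largest rise and fall of each other list; some other members' ranges were added after their values were seen. Srp54c, Camlg and 4 globin genes of the lists were not analysed here. Alternatives were pseudocounts of 0.1 and 0.5, no filter, a minimum mean TPM of 5, no scaling (TPM as deposited), quantile normalization, an untrended prior, voom, leaving out each library, replicate blocks and only the 4 libraries compared. Figures were drawn with matplotlib 3.10.9.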

Additional observations from a re-analysis of the deposited data

How the results depend on the processing

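Of the 42 tested members, 38 kept their direction and their side of the threshold in late against early polysomes on average in every alternative run. Without scaling (TPM as deposited), the median over members was 0.155 on the log2 scale and Srprb, which was not called, turned from -0.07 to 0.046; the median over all genes moved with it, from -0.01 to 0.09. Ssr1 and Arf4 lost and Arcn1 gained a call, as given with those genes; the cause was not tested. Leaving out 1 library at a time gave 39 to 40 called members on average, 29 to 35 in WT (29 without WT early replicate 2), 35 to 40 in cKO, and 0 in each genotype comparison and the interaction, with a median over members from -0.00321 to 0.0826. With 1 library left in a group, that library is assumed to vary like the others. With lysate as a replicate block, 39 members were called on average, 34 in WT and 37 in cKO, and 0 in the interaction. With the replicate number as a replicate block across genotypes, 0 members were called in early, late and lysate-mean comparisons, with 4, 2 and 12 at an unadjusted p under 0.05 (all genes 8.41%, 11.9% and 21.2%), and 82 of all genes were called on lysate means against 1 without it. Deviations from group means of same-numbered WT and cKO libraries had r = 0.331 (early) and 0.142 (late); no label says that the number marks a shared batch. On average over genotypes the lysate block changed the call of Ssr1 alone (adjusted p = 0.0687, limma); calls lost within a genotype are given with those results. Mex3a fell in all alternatives; beside the losses given with it, it missed the threshold in early polysomes on only the 4 libraries compared (adjusted p = 0.0845), and, averaged over a lysate's fractions, under an untrended prior (0.066) or without a filter (0.165, limma). The shortest members rest on the fewest reads, with 56 for Sec61g in the shallowest library, which limits their precision.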
